A study of Mus musculus with 12 samples.

Results

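The subunits of the proteasome and the factors that assemble it, here all genes with symbols made of Psma, Psmb, Psmc, Psmd, Psme, Psmf or Psmg and a number, were compared in the hypothalamus of obese mice given vehicle, celastrol or withaferin A. A gene was represented by a probe set that carried its symbol alone, and by the probe set with the highest mean where there were several. The rule found 50 of the 19938 genes on the array. Of these, 47 were bright enough to be tested, among 14953 tested genes in all, while Psma8, Psmb8 and Psmb11 lay below the limit for dim genes, a mean log2 signal of 5.81. The 47 were 7 alpha ring subunits, 9 beta ring subunits, 6 ATPases, 14 lid and base genes, 5 activators and inhibitors, 4 assembly factors and 2 interacting proteins, Psmc3ip and Psme3ip1, which share the naming pattern but are not known as proteasome subunits.

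The proteasome is the barrel-shaped protease that degrades proteins tagged with ubiquitin in the cytosol and nucleus. Alpha rings form its gates, beta rings hold the catalytic sites, and a cap of ATPases, scaffold subunits and ubiquitin receptors binds, unfolds and feeds in the substrate. When its activity is blocked, cells are known to raise the subunit genes together through the transcription factor Nfe2l1, and interferons are known to raise the immunoproteasome subunits Psmb8, Psmb9 and Psmb10 and the activators Psme1 and Psme2. Celastrol, a triterpenoid, and withaferin A, a steroidal lactone, have each been described as inhibitors of the proteasome in cultured tumour cells. The comparison therefore bears on whether the transcripts of the machine itself differed in the treated hypothalamus; protein and activity were not measured.

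All mice were C57BL/6J males that ate a 45% fat diet for 20 weeks, starting at 3 weeks of age, and were 23 weeks old. Every mouse received vehicle, DMSO, by daily intraperitoneal injection for 4 days, and then, for 4 more days and by the same route, either DMSO again, withaferin A at 2 mg/kg or celastrol, whose daily dose was 100 µg/kg. Each group had 4 arrays, which the labels call biological replicates, so there were 12 arrays in all. The doses of the compounds differ, and no lean group entered this report, so the values describe obese mice at these doses only.

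The deposited values were log2 signals, and array medians lay between 6.89 and 6.98. Of 14 hypothalamic marker genes listed, 13 were on the array and 13 of these passed the dim limit. Markers of neighbouring tissue and of other cell types differed between arrays. The mean of 6 pituitary genes, relative to the DMSO average, was 2.35 on celastrol replicate 2, 0.38 to 0.51 on the other celastrol arrays, −0.23 to 0.21 with DMSO and −0.04 to 0.43 with withaferin A. Means of 7 oligodendrocyte genes were −0.24 to −0.19 with celastrol, −0.21 to −0.05 with withaferin A and −0.03 to 0.05 with DMSO, and those of 7 endothelial genes −0.36 to −0.13, −0.24 to −0.03 and −0.06 to 0.04. With celastrol 4 of the oligodendrocyte genes were lower and 1 higher at an unadjusted p under 0.05, against 6.25% and 4.19% of all tested genes. Opalin read 7.40 to 7.74 with celastrol against 8.45 to 8.73 with DMSO, while Mobp read 11.20 to 11.405 against 10.92 to 11.05. Of the 7 endothelial genes, 3 were lower and 0 higher with celastrol at that unadjusted p, against the same shares of all tested genes. Kdr read 5.60 to 6.33 with celastrol against 6.59 to 6.75 with DMSO, while Flt1 read 9.42 to 9.54 against 9.42 to 9.46. Thalamic markers varied within every group: the mean of 7 genes was 0.27, −0.39, −0.52 and 0.65 on DMSO replicates 1 to 4, −0.08 to 0.84 with celastrol and −0.32 to 0.57 with withaferin A. Of the 13 hypothalamic markers, 6 were lower and 1 higher with celastrol at an unadjusted p under 0.05, against 6.25% and 4.19% of all tested genes. With withaferin A 5 were lower and 0 higher, against 9.11% and 6.62%. With celastrol 1 of them, Oxt, was lower at an adjusted p under 0.05 (limma), which 0.769% of all tested genes passed. Their mean was −0.17 to −0.02 with celastrol, −0.23 to −0.03 with withaferin A and −0.07 to 0.09 with DMSO. The part of tissue makeup in the values that follow was not tested, and in whole tissue fewer cells of a type and less RNA per cell cannot be told apart.

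Proteasome transcripts lay within narrow limits in all 3 groups. The range of a member over the 12 arrays was 0.30 at the median, against 0.39 over all tested genes, from 0.17 for Psma7 to 0.79 for Psmg3, an assembly factor close to the dim limit. The spread within groups, as a pooled SD, was 0.078 at the median of the members and 0.107 at the median of all tested genes. For celastrol versus DMSO, the confidence interval of a difference extended 0.1311 to either side at the median of the members. This reach was 0.1335 for oxidative phosphorylation genes, 0.1335 for ribosomal protein genes, 0.1375 for chaperones and 0.1595 for all tested genes. By this measure the narrow spread was not particular to the proteasome genes. None of the 47 members passed an adjusted p of 0.05 (limma, Benjamini-Hochberg over all 14953 genes) in any of the 3 comparisons. That is 0 of 47 for celastrol versus DMSO, where 0.769% of all tested genes passed, 0 of 47 for withaferin A versus DMSO, where 0% passed, and 0 of 47 for withaferin A versus celastrol, where 0.0468% passed. The plot of all members by array shows small differences scattered over the classes.

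**Figure D1:**
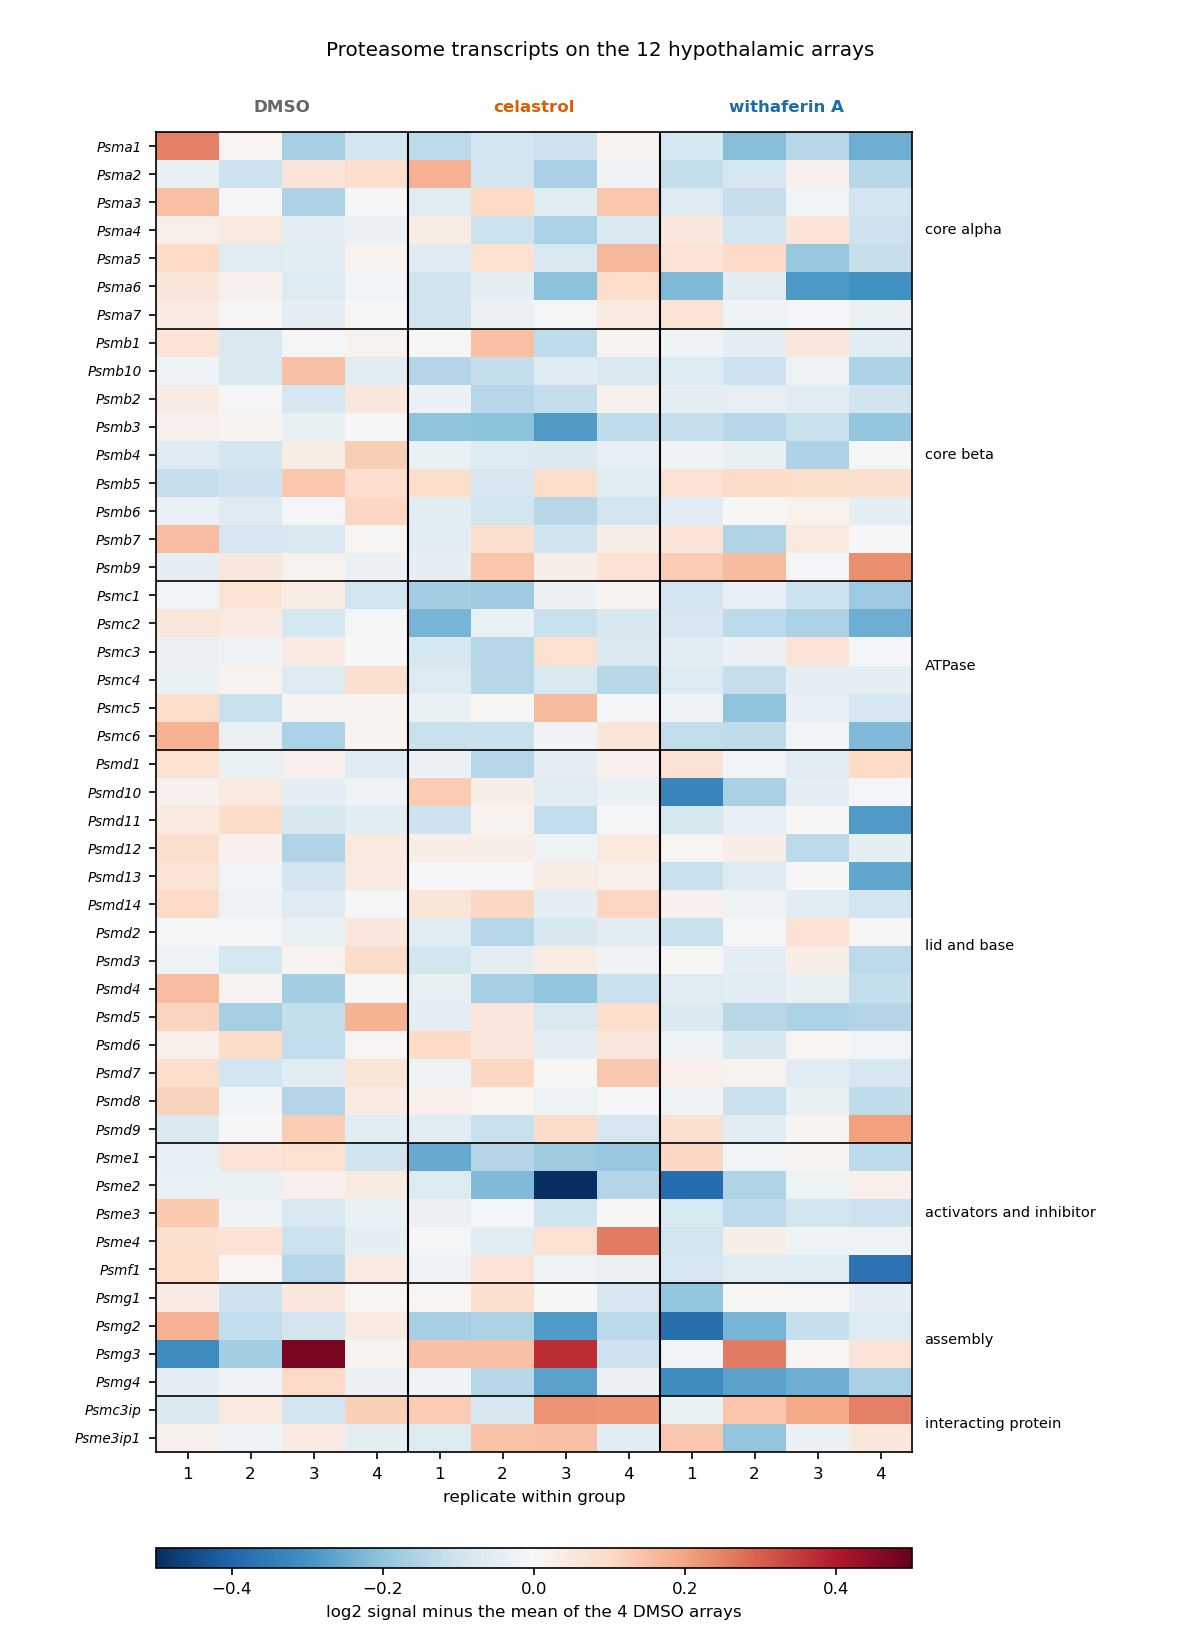
Log2 signal of the 47 tested members on each of the 12 arrays, minus the mean of the 4 DMSO arrays for that gene; rows are genes grouped by role, columns are the replicates of each group. Most cells are pale, Psmb3 is below the DMSO mean on all 4 celastrol and all 4 withaferin A arrays, and Psmg3 varies among the DMSO arrays themselves.

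Without adjustment for the number of genes, celastrol versus DMSO gave 0 members higher at p under 0.05, against 4.19% of all tested genes, and 5 lower, 10.6% of the members against 6.25% of all tested genes. The 5 were Psmb3, Psmc4, Psme1, Psme2 and Psmg2. The count of 5 became 2 on omission of DMSO replicate 4 or of celastrol replicate 3, where 5.87% and 5.06% of all tested genes were lower, and stayed 5 on omission of celastrol replicate 2, the array with the high pituitary signal, where Psmc4 dropped out and Psmc2 came in. In 6 members, Psmb3, Psmc4, Psmd2, Psme1, Psme2 and Psmg2, all 4 celastrol arrays lay below all 4 DMSO arrays, which is 12.8% of the members against 4.5% of all tested genes. In 0 members did all celastrol arrays lie above, against 2.71%. The median log2 difference of the members was −0.03, against −0.02 over all tested genes, and the values ran from −0.24 for Psme2 to 0.14 for Psmg3. By sign, 28 of 47 members (59.6%) were below 0, close to the 57.4% of all tested genes. The median was −0.02 with renewed quantile normalization and −0.009, −0.01 and −0.02 without DMSO replicate 1, DMSO replicate 4 and celastrol replicate 3.

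Withaferin A versus DMSO gave 0 members higher at p under 0.05, against 6.62% of all tested genes, and 5 lower, 10.6% of the members against 9.11% of all tested genes. These were Psma6, Psmb3, Psmc2, Psmg2 and Psmg4. The count was 3 without DMSO replicate 1, where 4.98% of all tested genes were lower, and 11 without DMSO replicate 3, where 12.5% were. In 2 members, Psmb3 and Psmg4, all withaferin A arrays lay below all DMSO arrays, 4.26% of the members against 4.69% of all tested genes, and in 0 members they all lay above, against 2.91%. Most members nevertheless had a small negative value. Of the 47, 40 (85.1%) were below 0, against 51.5% of all tested genes, with a median of −0.06 against −0.0041. The median stayed negative but depended on the scaling of the arrays: a renewed quantile normalization gave −0.01 with 26 of 47 (55.3%) below 0, against 0.0071 and 47.3% over all tested genes. Centring each array on its median gave −0.11 with 42 of 47 (89.4%) below 0 and 12 lower at p under 0.05, while over all tested genes the median was −0.05, with 66.1% below 0 and 15.5% lower. Without DMSO replicate 1 the median of the members was −0.04. Each comparison with vehicle uses the same 4 DMSO arrays, so the signs in one are tied to those in the other.

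Withaferin A versus celastrol gave 1 member higher at p under 0.05, Psme1, against 8.67% of all tested genes, and 1 lower, Psmd10, against 7.46%. The arrays of the compounds did not overlap in 2 members higher with withaferin A, Psmb6 and Psme1 (3.92% of all tested genes), and in 2 lower, Psmd13 and Psmf1 (5.35%). By sign, 29 of 47 members (61.7%) were lower with withaferin A, against 45.1% of all tested genes, and the median was −0.04 against 0.01. These values depended on the scaling too, with −0.01 and 26 of 47 lower after renewed quantile normalization, against 0.02 and 42.2% of all tested genes, and −0.08 and 34 of 47 lower after centring on array medians, against −0.02 and 57.8%. Without celastrol replicate 2 the median was −0.02.

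The 95% interval of a member's difference extended 0.13 to either side at the median. It lay wholly within 1.2-fold for 40 of 47 members with celastrol, 35 with withaferin A and 38 between the compounds. Over all 14953 tested genes it did so for 9426, 8469 and 8394, in the same order. With celastrol it did so for 64 of 79 oxidative phosphorylation, 45 of 58 ribosomal protein and 35 of 46 chaperone genes. With withaferin A these counts were 44, 31 and 30. The member intervals that reached farthest were those of Psme2 and Psmg3 for celastrol, to −0.45 and 0.45, or 1.36-fold and 1.365-fold. With withaferin A they were those of Psmg4, to −0.38, and Psmg3, to 0.39.

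**Figure D2:**
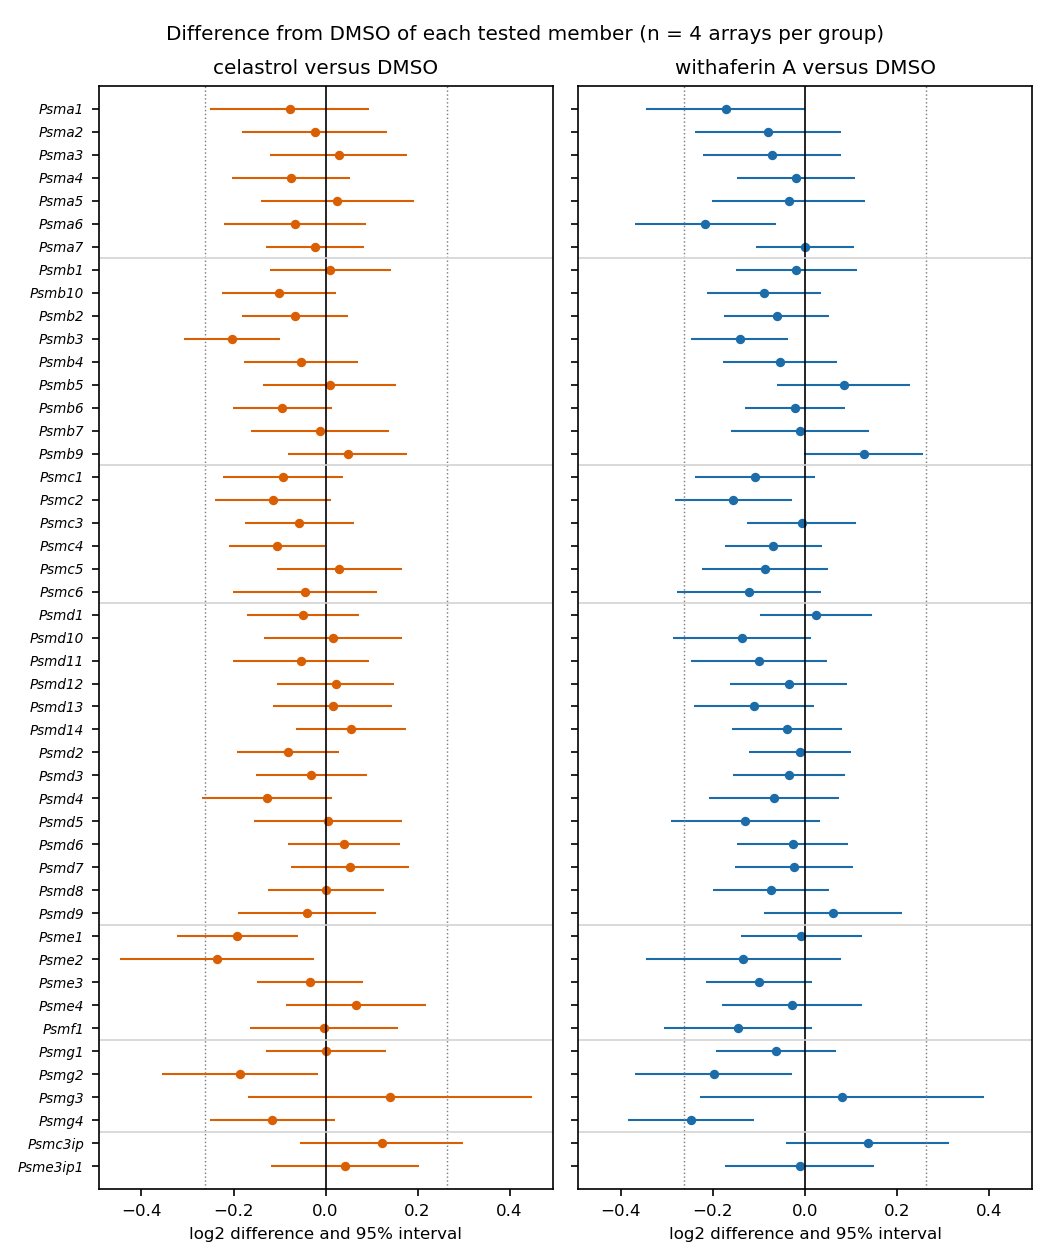
Log2 difference from DMSO for each tested member with its 95% interval (limma, 4 arrays per group), celastrol on the left and withaferin A on the right; dotted lines mark 1.2-fold in either direction. Most intervals cross 0 and lie between the dotted lines, and with withaferin A 40 of 47 points lie left of 0.

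Promoter sequences are shown for the member with the smallest p in each comparison, Psmb3 for celastrol, Psmg4 for withaferin A and Psme1 between the compounds, and for Psmb5, the catalytic subunit that proteasome inhibitors most often bind. They come from RefSeq (GRCm38.p6), which matched 42 of the 50 members with 46 promoters, and run from 250 bases before the start site to 30 after it, 5′ to 3′ on the strand of the gene. Psmb3 lies at chr11:97703184-97703463 on the plus strand, Psmg4 at chr13:34162714-34162993 on the plus strand, Psme1 at chr14:55578244-55578523 on the plus strand and Psmb5 at chr14:54617966-54618245 on the minus strand. Capitals mark matches to a searched motif on either strand.
Psmb3: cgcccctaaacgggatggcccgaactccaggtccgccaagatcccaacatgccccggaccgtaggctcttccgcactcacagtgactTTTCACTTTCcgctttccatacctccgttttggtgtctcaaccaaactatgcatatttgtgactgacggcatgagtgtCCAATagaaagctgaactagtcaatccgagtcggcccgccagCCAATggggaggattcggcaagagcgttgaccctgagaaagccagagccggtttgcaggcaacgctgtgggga
Psmg4: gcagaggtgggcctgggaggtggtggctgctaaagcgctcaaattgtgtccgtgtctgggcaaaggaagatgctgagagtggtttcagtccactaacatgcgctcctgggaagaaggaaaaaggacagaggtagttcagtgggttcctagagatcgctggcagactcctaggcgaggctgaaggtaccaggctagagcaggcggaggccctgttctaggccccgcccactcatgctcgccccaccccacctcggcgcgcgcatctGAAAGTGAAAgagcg
Psme1: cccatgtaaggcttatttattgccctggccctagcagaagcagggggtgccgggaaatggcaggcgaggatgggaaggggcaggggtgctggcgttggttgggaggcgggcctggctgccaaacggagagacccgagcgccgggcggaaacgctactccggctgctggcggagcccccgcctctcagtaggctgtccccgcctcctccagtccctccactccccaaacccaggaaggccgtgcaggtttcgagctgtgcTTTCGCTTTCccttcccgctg
Psmb5: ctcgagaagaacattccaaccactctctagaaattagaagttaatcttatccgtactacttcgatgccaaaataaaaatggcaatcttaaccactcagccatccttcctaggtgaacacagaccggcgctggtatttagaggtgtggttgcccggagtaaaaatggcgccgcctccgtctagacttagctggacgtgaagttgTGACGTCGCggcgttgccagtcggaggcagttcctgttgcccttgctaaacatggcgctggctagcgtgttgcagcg

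The core of the interferon-stimulated response element, searched on both strands as GAAA, NN and GAAA in a row, matched in Psmb3 at an offset of −163 bases from the start site and in Psmg4 and Psme1 just after it, at offsets of 15 and 9 bases. Over the full window of 300 bases it was present in 5 of 46 member promoters (10.9%), those of Psmb3, Psmd4, Psmd9, Psme1 and Psmg4, and in 3.44% of all 32851 promoters. The core of the antioxidant response element, TGACNNNGC, to which Nfe2l1 is known to bind, matched in Psmb5, Psmb6, Psmc6, Psmd12, Psmd9 and Psme4, or 13% of member promoters against 12.4% of all. The CCAAT box was in 34.8% against 37.4%, with a pair of matches in Psmb3, the gamma-activated site TTCNNNGAA in 6.52% against 8.3%, and the heat shock element (GAA, NN, TTC, NN and GAA in a row) in 0 of 46 against 0.603%. A match describes letters in this window and not a bound site.

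The alpha ring closes the ends of the barrel and docks the caps. Its 7 members had medians of −0.02 with celastrol and −0.07 with withaferin A. With withaferin A 6 of 7 were below 0, against 51.5% of all tested genes. Counts by class are at the deposited scaling, while renewed quantile normalization left 26 of all 47 members below 0 with withaferin A. Psma6 (probe set 10395816), a structural subunit of this ring, read 10.22, 10.18, 10.09 and 10.15 on DMSO replicates 1 to 4, 10.06, 10.11, 9.95 and 10.25 with celastrol, and 9.94, 10.11, 9.87 and 9.86 with withaferin A, in the same order. All withaferin A arrays but replicate 2 lay below the DMSO arrays, and that array lay among them. The difference was −0.22 ± 0.07 (SE; adjusted p = 0.209 by limma) for withaferin A versus DMSO and −0.07 ± 0.07 (adjusted p = 0.825) for celastrol. Between the compounds it was −0.15 ± 0.07, with an adjusted p of 0.3195, and −0.10 without celastrol replicate 4. On omission of celastrol replicate 3 or 4 the celastrol value was −0.02 or −0.12. Psma4, another alpha subunit, had −0.08 ± 0.06 with celastrol and −0.02 ± 0.06 with withaferin A, over signals of 9.06 to 9.15 with DMSO, 8.95 to 9.14 and 8.9998 to 9.17, so all groups overlapped.

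Psmb3, a beta ring subunit without a catalytic site of its own, had the smallest adjusted p of all members for celastrol. On its probe set 10434643 it read 12.19, 12.19, 12.14 and 12.17 with DMSO, 11.97, 11.97, 11.89 and 12.05 with celastrol, and 12.06, 12.03, 12.06 and 11.97 with withaferin A. Every treated array lay below every DMSO array, and the treated groups overlapped each other. The difference was −0.20 ± 0.05 for celastrol (adjusted p = 0.0837 by limma), or 0.869-fold, and −0.14 ± 0.05 for withaferin A (adjusted p = 0.226). The celastrol value passed the threshold under 3 alternatives: a stricter dim limit at the 50th percentile (adjusted p = 0.0432), an intensity trend with a robust prior (0.0154) and array weights (0.0324). Over all alternatives the adjusted p ran from 0.0154 to 0.255, the latter without celastrol replicate 3, and without celastrol replicate 2 it was 0.188 at a difference of −0.20.

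A second Psmb3 probe set, 10380815, gave a different picture for withaferin A. It read 11.80 to 11.85 with DMSO, 11.62 to 11.75 with celastrol and 11.74 to 11.88 with withaferin A. Here too all celastrol arrays lay below all DMSO arrays, while the withaferin A arrays overlapped them. The differences were −0.17 ± 0.05 for celastrol and −0.03 ± 0.05 for withaferin A, so the probe sets gave like values for celastrol and unlike ones for withaferin A. The genome positions of these probe sets were not used here, so which transcript or gene copy each one reads was not determined, and the Psmb3 values are those of the probe set named. The source of that disagreement was not tested.

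**Figure D3:**
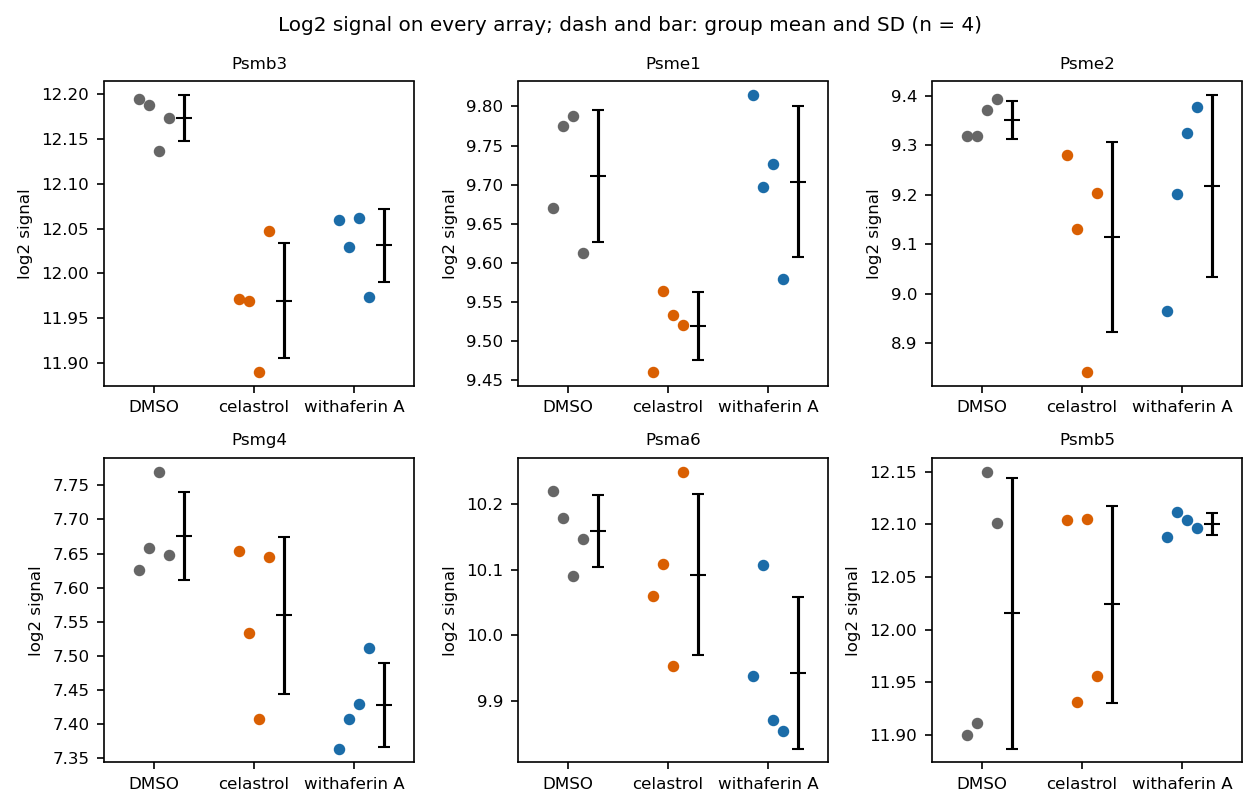
Log2 signal of 6 members on every array, with the group mean and SD (4 arrays per group); each panel has its own vertical scale, and none starts at 0. All celastrol arrays of Psmb3, Psme1 and Psme2 lie below the DMSO arrays, all withaferin A arrays of Psmb3 and Psmg4 do, and Psmb5 varies more among DMSO arrays than between groups.

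Psmb5, Psmb6 and Psmb7 carry the chymotrypsin-like, caspase-like and trypsin-like sites of the constitutive core. Psmb5 read 11.90, 11.91, 12.15 and 12.10 with DMSO, 12.10, 11.93, 12.11 and 11.96 with celastrol, and 12.09, 12.11, 12.10 and 12.10 with withaferin A. The DMSO arrays split into a low and a high pair, the celastrol arrays did likewise, and the withaferin A arrays lay together inside the DMSO range. Its differences were 0.0086 ± 0.07 (celastrol) and 0.08 ± 0.07 (withaferin A), with 95% intervals of −0.14 to 0.15 and −0.06 to 0.23. Psmb6 read 10.10, 10.07, 10.13 and 10.24 with DMSO, 10.08, 10.04, 10.00 and 10.04 with celastrol, and 10.08, 10.13, 10.15 and 10.09 with withaferin A. The compounds' arrays did not overlap by a narrow margin, but the direct difference was 0.07 ± 0.05 with an adjusted p of 0.481. Psmb7 differed from DMSO by −0.01 ± 0.07 with each compound, and its groups overlapped throughout.

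The immunoproteasome subunits replace those sites in immune cells and under interferon. Psmb9 read 7.56, 7.67, 7.63 and 7.58 with DMSO, 7.57, 7.75, 7.64 and 7.68 with celastrol, and 7.74, 7.77, 7.60 and 7.84 with withaferin A. All withaferin A arrays but replicate 3 lay above the DMSO arrays. The withaferin A difference was 0.13 ± 0.06 (adjusted p = 0.324 by limma), and the celastrol difference 0.05 ± 0.06. Psmb10 went the other way by sign, with −0.10 ± 0.06 for celastrol and −0.09 ± 0.06 for withaferin A, over signals of 9.03 to 9.25 with DMSO, 8.96 to 9.04 and 8.95 to 9.08. Without DMSO replicate 3 these differences were −0.05 and −0.04. Psmb8 was too dim to test, at 5.57 to 5.95 with DMSO, 5.67 to 5.72 with celastrol and 5.83 to 6.09 with withaferin A. The immunoproteasome members thus had no common sign with either compound.

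The 6 ATPases form the ring that unfolds substrates and opens the gate. Their medians were −0.07 with celastrol and −0.10 with withaferin A. At the deposited scaling 6 of 6 were below 0 with withaferin A, against 51.5% of all tested genes. The values ran from −0.16 for Psmc2 to −0.0062 for Psmc3. Psmc2 read 8.52, 8.50, 8.37 and 8.45 with DMSO, 8.22, 8.43, 8.35 and 8.38 with celastrol, and 8.37, 8.33, 8.30 and 8.21 with withaferin A. The withaferin A arrays reached just into the bottom of the DMSO range, and the difference was −0.16 ± 0.06 (adjusted p = 0.249 by limma), with −0.11 ± 0.06 for celastrol, which was −0.07 without celastrol replicate 1. Psmc4 read 9.61, 9.66, 9.58 and 9.72 with DMSO, 9.57, 9.50, 9.56 and 9.50 with celastrol, and 9.57, 9.53, 9.59 and 9.60 with withaferin A. Its celastrol arrays lay below the DMSO arrays by a narrow gap, at −0.11 ± 0.05 (adjusted p = 0.476), and the withaferin A value was −0.07 ± 0.05. Psmc5 read 8.87 to 9.07 with DMSO, 8.95 to 9.14 with celastrol and 8.78 to 8.96 with withaferin A, and its largest difference, −0.12 ± 0.06, was between the compounds (adjusted p = 0.378), and was −0.07 without celastrol replicate 3 or −0.08 without withaferin A replicate 2. Psmc1 had a second probe set whose withaferin A value was −0.20 ± 0.07, against −0.11 ± 0.06 on the one used.

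The 14 lid and base genes encode the scaffold, the ubiquitin receptors and the deubiquitinase Psmd14, and, in Psmd5, Psmd9 and Psmd10, chaperones of base assembly. Their medians were 0.0028 with celastrol and −0.04 with withaferin A. At the deposited scaling 6 of 14 were below 0 with celastrol, against 57.4% of all tested genes. With withaferin A 12 of 14 were, against 51.5%. Psmd4, a ubiquitin receptor, had the smallest p of this class for celastrol, at −0.13 ± 0.07, or −0.08 without DMSO replicate 1. It read 9.35, 9.21, 9.02 and 9.19 with DMSO, 9.16, 9.03, 8.997 and 9.08 with celastrol, and 9.13, 9.14, 9.16 and 9.07 with withaferin A, and the wide DMSO range took in most treated arrays. Psmd10, known as gankyrin, read 8.87, 8.89, 8.80 and 8.83 with DMSO, 8.97, 8.87, 8.79 and 8.81 with celastrol, and 8.52, 8.68, 8.80 and 8.84 with withaferin A. Withaferin A replicates 1 and 2 were low and replicates 3 and 4 were inside the DMSO range. The difference was −0.14 ± 0.07 from DMSO and −0.15 ± 0.07 from celastrol (adjusted p = 0.361 and 0.301 by limma), and without withaferin A replicate 1 they were −0.07 and −0.09. Psmd2, a scaffold of the base, did not overlap between DMSO (10.65 to 10.74) and celastrol (10.55 to 10.64), at −0.08 ± 0.05, while its second probe set gave −0.0087 ± 0.06. Psmd13, a lid scaffold subunit, read 9.72 to 9.76 with celastrol and 9.46 to 9.72 with withaferin A, at −0.13 ± 0.06 between the compounds (adjusted p = 0.321).

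Psme1 and Psme2 encode the alpha and beta subunits of an activator ring that binds the core in place of the ATPase cap, and the genes lie close together on chromosome 14 in RefSeq, with Emc9 between them. Psme1 read 9.67, 9.78, 9.79 and 9.61 with DMSO, 9.46, 9.56, 9.53 and 9.52 with celastrol, and 9.81, 9.70, 9.73 and 9.58 with withaferin A. The celastrol arrays lay below all others, while DMSO and withaferin A covered much the same range. The difference was −0.19 ± 0.06 for celastrol (adjusted p = 0.213 by limma) and −0.0075 ± 0.06 for withaferin A (adjusted p = 0.962). Between the compounds Psme1 had the smallest adjusted p of all members, 0.199, at 0.18 ± 0.06 higher with withaferin A, with a 95% interval of 0.05 to 0.32. Without celastrol replicate 2 the celastrol value was −0.21.

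Psme2 read 9.32, 9.32, 9.37 and 9.39 with DMSO, 9.28, 9.13, 8.84 and 9.20 with celastrol, and 8.97, 9.20, 9.33 and 9.38 with withaferin A. The celastrol arrays lay below the DMSO arrays, with replicate 3 far lower than the rest, and the withaferin A arrays spread from below the DMSO range to within it. The celastrol difference, −0.24 ± 0.10 (adjusted p = 0.3975 by limma), dropped in size to −0.15 on omission of celastrol replicate 3, stayed −0.24 on omission of replicate 2, and the withaferin A difference was −0.13 ± 0.10, or −0.05 without withaferin A replicate 1. A probe set shared by Psme2 and Psme2b, left out of the tests because its signal cannot be given to 1 gene, gave −0.03 ± 0.10 and −0.10 ± 0.10. Microglial marker means, from 7 genes, of which all but Aif1 passed the dim limit, were −0.21 to 0.02 with celastrol, −0.30 to −0.04 with withaferin A and −0.07 to 0.08 with DMSO. The part of these cells in the Psme1 and Psme2 values was not tested.

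The other members of this class were a pair of activators and an inhibitor of the core. Psme3, which forms a nuclear activator ring, differed by −0.03 ± 0.05 with celastrol and −0.10 ± 0.05 with withaferin A, over signals of 10.63 to 10.84 with DMSO, 10.61 to 10.71 and 10.58 to 10.63, and the withaferin A value was −0.06 without DMSO replicate 1. Psme4, a large single-chain activator, differed by 0.07 ± 0.07 and −0.03 ± 0.07. Psmf1, known as an inhibitor of the isolated core, read 9.06, 8.98, 8.83 and 9.02 with DMSO, 8.95, 9.04, 8.95 and 8.94 with celastrol, and 8.89, 8.91, 8.91 and 8.60 with withaferin A. Its withaferin A arrays lay below the celastrol arrays, and replicate 4 stood apart below the other withaferin A arrays. The differences were −0.0031 ± 0.07 for celastrol, −0.14 ± 0.07 for withaferin A (adjusted p = 0.364 by limma) and −0.14 ± 0.07 between the compounds, and each of the withaferin A values was −0.07 without replicate 4 of that group.

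The assembly factors Psmg1 to Psmg4 are chaperones that build the alpha ring, in the pairs Psmg1 with Psmg2 and Psmg3 with Psmg4, and are not part of the finished proteasome. Psmg4 (probe set 10404531) read 7.63, 7.66, 7.77 and 7.65 with DMSO, 7.65, 7.53, 7.41 and 7.64 with celastrol, and 7.36, 7.41, 7.43 and 7.51 with withaferin A. All withaferin A arrays lay below all DMSO arrays, and the celastrol arrays spanned the space between. The withaferin A difference, −0.25 ± 0.06 or 0.843-fold, had the smallest adjusted p of the members in that comparison, 0.163 (limma; 0.0871 to 0.457 over the alternatives). The celastrol difference was −0.12 ± 0.06, or −0.065 without celastrol replicate 3, and the direct difference −0.13 ± 0.06 had an adjusted p of 0.322.

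Psmg2 read 8.65, 8.36, 8.39 and 8.52 with DMSO, 8.31, 8.32, 8.20 and 8.35 with celastrol, and 8.11, 8.25, 8.37 and 8.41 with withaferin A. The celastrol arrays ended just below the lowest DMSO array, and the withaferin A arrays overlapped the DMSO arrays. Its differences were −0.19 ± 0.08 (adjusted p = 0.412 by limma) and −0.20 ± 0.08 (adjusted p = 0.262). Psmg1 differed by 3e-04 ± 0.06 and −0.06 ± 0.06. Psmg3, the member with the largest spread, read 5.88, 6.03, 6.67 and 6.21 with DMSO alone, and its differences of 0.14 ± 0.14 and 0.08 ± 0.14 were no larger than their errors. The interacting proteins had 0.12 ± 0.08 and 0.14 ± 0.08 for Psmc3ip, a cofactor of meiotic recombination, and 0.04 ± 0.08 and −0.01 ± 0.08 for Psme3ip1, a binding partner of the nuclear activator.

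Genes known to control or accompany the proteasome were described alongside. A list of control factors held Nfe2l1 and Nfe2l2, their partners and the proteins that process them, and a proteasome import factor. Of its 13 tested genes, 0 passed the adjusted threshold in any comparison (limma), and 0 had an unadjusted p under 0.05. Over all tested genes 4.19% were higher and 6.25% lower with celastrol, 6.62% and 9.11% with withaferin A, and 8.67% and 7.46% between the compounds. Nfe2l1 read 10.49, 10.50, 10.62 and 10.62 with DMSO, 10.62, 10.57, 10.59 and 10.53 with celastrol, and 10.46, 10.68, 10.63 and 10.65 with withaferin A. The groups overlapped, at 0.02 ± 0.06 for celastrol and 0.05 ± 0.06 for withaferin A; this factor is regulated largely as a protein, which arrays do not measure. The smallest p of this list belonged to Akirin2, a nuclear import factor of proteasomes, for celastrol (−0.11 ± 0.06), to the ubiquitin ligase Syvn1 for withaferin A (0.09 ± 0.05) and to the ligase subunit Fbxw7 between the compounds (−0.11 ± 0.05).

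Among 9 tested proteasome-associated proteins, 0 passed the adjusted threshold (limma), with 0 at an unadjusted p under 0.05 for celastrol, 4 lower for withaferin A, where 9.11% of all tested genes were lower, and 3 lower between the compounds, where 7.46% were. Sem1, a small lid subunit whose symbol falls outside the naming pattern, read 8.55, 8.48, 8.41 and 8.67 with DMSO, 8.38, 8.58, 8.50 and 8.54 with celastrol, and 8.09, 8.25, 8.31 and 8.31 with withaferin A. All withaferin A arrays lay below all others, at −0.29 ± 0.07 from DMSO (adjusted p = 0.155) and −0.26 ± 0.07 from celastrol (adjusted p = 0.159), while celastrol differed from DMSO by −0.03 ± 0.07. The others at p under 0.05 for withaferin A were the deubiquitinase Uchl5 (−0.17 ± 0.07), the proteasome-binding Zfand5 (−0.16 ± 0.07) and the thioredoxin-like Txnl1 (−0.17 ± 0.08). Zfand2a, an arsenite-induced proteasome adaptor, had the smallest p of the list for celastrol, at −0.05 ± 0.05.

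Of 7 tested ubiquitin genes and shuttle factors, 0 passed the adjusted threshold (limma), with 0 at an unadjusted p under 0.05 for celastrol, 1 lower for withaferin A and 2 lower between the compounds, against the same 9.11% and 7.46% of all tested genes. The shuttle factor Ubqln2 read 10.49 to 10.65 with DMSO, 10.42 to 10.53 with celastrol and 10.39 to 10.47 with withaferin A, at −0.07 ± 0.05 and −0.14 ± 0.05 from DMSO. Rad23b, another shuttle, read 11.01 to 11.09 with celastrol and 10.69 to 10.99 with withaferin A, without overlap, at −0.20 ± 0.06 between the compounds (adjusted p = 0.191).

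Genes of antigen presentation and interferon response were listed because Psme1, Psme2 and the immunoproteasome subunits are interferon targets. Of 13 tested, 0 passed the adjusted threshold in any comparison (limma). At an unadjusted p under 0.05, celastrol had 5 lower (Ifit1, Ifit3, Gbp3, Oasl2 and Tapbp) and withaferin A had 1 higher (Nlrc5) and 2 lower (Ifit1 and Ifit3), while between the compounds 3 were higher with withaferin A and 0 lower. Over all tested genes 6.25% were lower with celastrol, 6.62% higher and 9.11% lower with withaferin A, and 8.67% higher between the compounds. The mean of the list relative to the DMSO average was −0.22 to −0.10 on the celastrol arrays, −0.03 to 0.04 on the DMSO arrays and −0.14 to 0.08 on the withaferin A arrays. Ifit3, an interferon-induced antiviral gene, read 8.54, 8.09, 8.02 and 8.22 with DMSO, 7.44, 7.83, 7.33 and 7.94 with celastrol, and 7.52, 7.89, 7.15 and 7.55 with withaferin A. Every treated array lay below every DMSO array, at −0.58 ± 0.17 (adjusted p = 0.157) and −0.69 ± 0.17 (adjusted p = 0.155). Nlrc5, the transactivator of MHC class I genes and of Psmb9, was at 9.10 to 9.49 with DMSO, 9.25 to 9.39 with celastrol and 9.41 to 9.67 with withaferin A. Its differences were 0.06 ± 0.08 and 0.31 ± 0.08 from DMSO (adjusted p = 0.873 and 0.169).

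Other large gene families were set beside the proteasome genes for withaferin A versus DMSO. Of their tested genes, 67 of 79 oxidative phosphorylation subunits (84.8%) were below 0 at a median of −0.10, 48 of 58 cytosolic ribosomal proteins (82.8%) at −0.09 and 36 of 46 chaperones (78.3%) at −0.06, beside 40 of 47 proteasome members (85.1%) at −0.06. At an unadjusted p under 0.05, 34.2% of the oxidative phosphorylation genes, 39.7% of the ribosomal protein genes and 13% of the chaperones were lower, beside 10.6% of the proteasome members and 9.11% of all tested genes. All of these values depended on the scaling. A renewed quantile normalization brought the medians, in the same order, closer to 0, to −0.04, −0.04, −0.02 and −0.01, with 52 of 79, 37 of 58, 28 of 46 and 26 of 47 genes below 0 and 16, 8, 1 and 4 lower at an unadjusted p under 0.05; over all tested genes the median was then 0.0071, with 47.3% below 0 and 6.92% lower. Centring each array on its median moved them away from 0, to −0.14, −0.13, −0.10 and −0.11, with 73, 52, 40 and 42 genes below 0 and 39, 28, 13 and 12 lower, while the median of all tested genes was −0.05, with 66.1% below 0 and 15.5% lower. With celastrol the medians were −0.05, −0.03, 0.01 and −0.03. These families are described by counts and medians only, and no difference between them was tested.

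**Figure D4:**
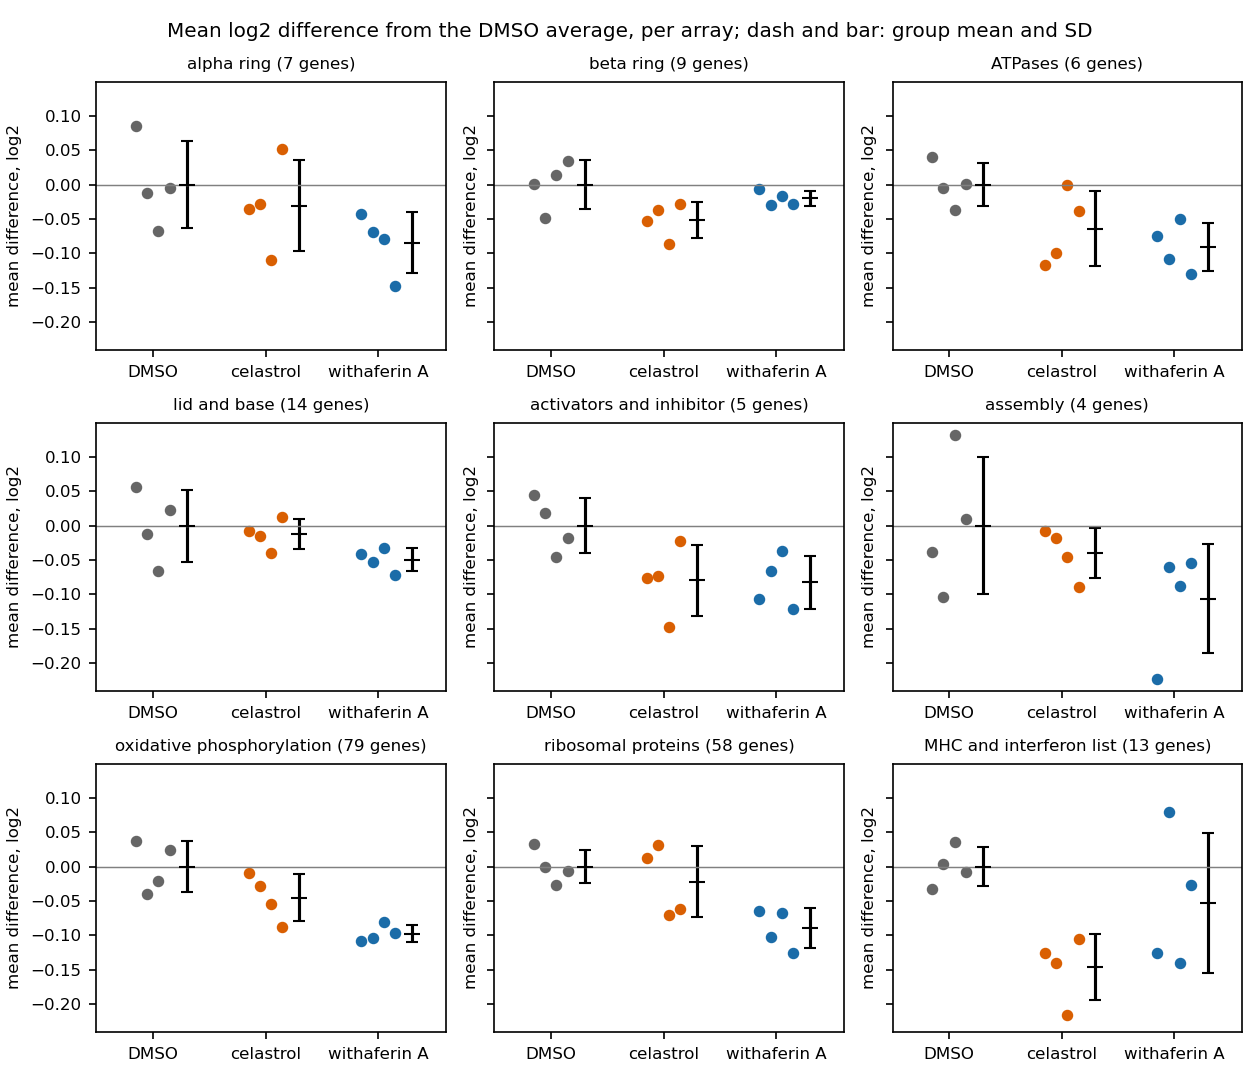
Mean log2 difference from the DMSO average over the genes of each class, per array, for 6 proteasome classes and 3 other gene lists; points are arrays, and the dash and bar are the group mean and SD of 4 arrays. At the deposited scaling, the only one shown, withaferin A arrays lie below 0 in all 6 proteasome classes, in oxidative phosphorylation and in ribosomal proteins. All 4 celastrol arrays lie below 0 in the beta ring, ATPases, activators and inhibitor, assembly factors, oxidative phosphorylation and the MHC and interferon list.

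By array, the mean of the 47 members was 0.04, −0.02, −0.03 and 0.01 with DMSO, −0.04, −0.04, −0.06 and −0.0055 with celastrol, and −0.06, −0.06, −0.04 and −0.08 with withaferin A. Array means are given at the deposited scaling only, and renewed quantile normalization took the withaferin A median of the members from −0.06 to −0.01. In the mean of the 47 members, all withaferin A arrays lay below all DMSO arrays by a narrow gap and overlapped the celastrol arrays. The gap was wider in oxidative phosphorylation, at −0.11 to −0.08 with withaferin A against −0.04 to 0.04 with DMSO. It was wider also in ribosomal proteins, at −0.13 to −0.06 against −0.03 to 0.03, while the chaperone means overlapped. DMSO replicates 1 and 4, the higher arrays of their group in the mean of the 47 members, were also those with the higher thalamic marker means. With celastrol the order was the reverse, with thalamic means of 0.44, 0.03, 0.84 and −0.08 on replicates 1 to 4. Withaferin A replicate 4, the lowest of its group for the 47 members, had the highest thalamic mean of that group, 0.57. The part of thalamic tissue was not tested. In the beta ring the withaferin A arrays lay within the DMSO range, between −0.03 and −0.0066 against −0.05 to 0.03. Class means were widest in the assembly factors, where DMSO arrays alone ran from −0.10 to 0.13.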

How the data were processed

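Hypothalamic RNA was measured on 12 one-colour Affymetrix arrays. The deposited values are log2 signals, which the authors made with RMA per the submitters' processing notes; its version is not given in the sources used here. Precision is limited by how many arrays there were, since no counts underlie them.

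Of 35556 probe sets, 21789 had 1 gene symbol, 1621 several and 12146 none. The probe set with the highest mean stood for each of 19938 genes, and those below the 25th percentile of means were left out. With limma 3.58.1 (lmFit, eBayes; R 4.3.3) 1 mean per group was estimated from all 12 arrays, with two-sided tests and Benjamini-Hochberg adjustment over 14953 genes; errors are SEs with 4 arrays per group, 9 residual and 4.44 prior degrees of freedom. The steps were tested on simulated data.

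The members and lists were chosen with earlier results of these data known. Members described were, in each class, the one with the smallest p per comparison, the catalytic subunits and the activators, and in each pathway list for the gene with the smallest p, plus Nfe2l1; further members and genes were named after their values were seen. The 1.2-fold limit that intervals were set against was also chosen after seeing the values, in place of a wider one used first; it is a description and enters no test. Alternatives changed the dim limit, scaling, prior, array weights, probe set rule, arrays fitted and a replicate block, and left out each array. Plots used matplotlib 3.10.9.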

Additional observations from a re-analysis of the deposited data

Results flagged for a closer look

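In 84 groups of 4 arrays, the highest or lowest array was compared with the others by Dixon's gap test, which chance meets in about 1 of 20 groups; 2 groups met it, both of Psmf1, the inhibitor of the isolated core. Withaferin A replicate 4 read 8.60, far below the next array of its group at 8.89. Celastrol replicate 2 read 9.04, above the next at 8.95. No explanation was tested.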

How the results depend on the processing

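Each value was recomputed under 9 other settings and with each of the 12 arrays left out. With celastrol versus DMSO, the 0 members past the threshold became 1 (Psmb3) with the 50th percentile limit and 1 with array weights. They became 1 also when the prior was robust with an intensity trend. Over the left-out arrays the count at an unadjusted p under 0.05 was 0 to 1 higher, against 3.53% to 4.69% of all tested genes. It was 2 to 6 lower, against 5.06% to 7.86%, and the median was −0.0416 to −0.009. With withaferin A versus DMSO, higher members numbered 1 with no dim limit, 1 with the 50th percentile and 0 to 1 over left-out arrays. Of all tested genes 9.64%, 3.68% and 3.61% to 9.89% were higher, in the same order. Lower members numbered 12 with arrays centred on their medians and 3 to 11 over left-out arrays, against 15.5% and 4.98% to 12.5%. The median was −0.0109 with renewed quantile normalization, −0.1067 with centring and −0.0653 to −0.0351 over left-out arrays. Between the compounds, higher members numbered 2 with no dim limit, 4 with renewed quantile normalization and 2 with the mean of a gene's probe sets. Of all tested genes 9.06%, 9.5% and 8.8% were higher, in the same order. Lower members numbered 0 with no dim limit, 4 with the 50th percentile limit, 4 with centring and 3 with the trend and robust prior. These stand against 5.59%, 10.7%, 10.5% and 8.5% of all tested genes. With array weights the lower members were 0, against 7.5%, and over left-out arrays 0 to 4, against 5.23% to 8.63%. The median was −0.0123 with renewed quantile normalization, −0.0751 with centring and −0.041 to −0.0216 over left-out arrays. Signs turned for members near 0: with celastrol, Psmf1 was 0.0028 and Psmb7 9e-04 with renewed quantile normalization and Psmb5 −0.0027 with centring, and with withaferin A renewed quantile normalization gave Psma4 0.0168, Psmb6 0.0415, Psme1 0.0422, Psmb7 0.045 and Psme4 0.01. Over left-out arrays the celastrol values ran from −0.0123 to 0.0592 for Psmc5, −0.0197 to 0.0408 for Psmd10, −0.0507 to 0.0266 for Psmf1, −0.0301 to 0.0533 for Psmb5, −0.0425 to 0.0395 for Psmb7, −0.0592 to 0.01 for Psme3 and −0.002 to 0.0408 for Nfe2l1, and the withaferin A values from −0.0479 to 0.0081 for Psma4, −0.0421 to 0.014 for Psmb6, −0.0442 to 0.034 for Psme1 and −0.0388 to 0.0411 for Psmb7. The cause was not tested. Over 25 named genes each, 502 of 525 recomputed values for celastrol and 512 of 525 for withaferin A kept their sign and side of the threshold. Between the compounds 231 of 231 did, but over 11 genes, most of them picked for the smallest p in that comparison. That count therefore cannot be compared with the others. Over all genes, the count past the threshold for celastrol was 115, and 182, 195 and 219 with the fit of 8 arrays, the trend with robust prior and array weights, 60 with no dim limit and 6 to 207 over left-out arrays; for withaferin A it was 0, and 8, 21 and 0 to 172; between the compounds 7, and 29 and 19 with the trend and the weights, 0 with the 8 arrays, 12 with centring, 13 and 11 with the 50th percentile and no dim limit, and 0 to 56. Same-numbered arrays did not deviate together (correlations −0.28 to 0.12), so the replicate block has no basis in the design. With it the lower members between the compounds were 0, against 6.77% of all tested genes. The smallest adjusted p of a member (limma) was then 0.195, 0.253 and 0.263, and 54, 0 and 7 genes passed.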
